A study of Mus musculus with 6 samples.

Results

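The genes described here are 35 components of the unfolded protein response of the endoplasmic reticulum (ER), chosen by name as its sensors, chaperones, folding enzymes and degradation factors. All 35 were found among the 32285 genes of the count table, and all 35 passed the filter on low counts that 15955 genes passed. RNA-seq was done on the whole kidney of 6 mice in which some copies of the mitochondrial genome carry a mutated TrnE, which encodes the tRNA for glutamate. The share of mutated copies, in percent, is called the mutation load. Kidneys labelled as controls had loads of 10%, 5% and 15% (low-load 1 to 3), and those labelled as high mutation load had 75%, 75% and 80% (high-load 1 to 3). The controls therefore carry the mutation too. The series describes all mice as females aged 100 weeks and names no strain, treatment or further allele. The mutated tRNA itself was not analysed here.

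Proteins that are secreted or inserted into membranes fold in the ER with the help of chaperones such as BiP, the product of Hspa5. When unfolded proteins accumulate, 3 sensors respond. IRE1, the product of Ern1, splices the mRNA of the transcription factor XBP1. ATF6 moves to the Golgi and is cut there into a transcription factor by the site-1 and site-2 proteases, the products of Mbtps1 and Mbtps2. PERK, the product of Eif2ak3, phosphorylates eIF2alpha and so favours translation of ATF4. Other kinases phosphorylate eIF2alpha as well. ATF6 is best known for raising chaperones, and XBP1 for raising co-chaperones, translocation and ER-associated degradation, in which misfolded proteins are returned to the cytosol. Many targets answer to both, so the split of the members into ATF6-leaning and XBP1-leaning outputs used here is one of emphasis. Counts per gene do not tell spliced from unspliced Xbp1 mRNA.

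One library went against the description of the series. In the library labelled low-load 2, the 4 Y-linked genes Ddx3y, Eif2s3y, Kdm5d and Uty had 3210 counts together, and Xist, the RNA of the inactive X chromosome, had 3 counts. In the other 5 kidneys the Y-linked genes had 0 counts and Xist had 14002 to 17028. This is the pattern of male tissue, whereas the series describes females. Whether the animal was male or the library was exchanged with another was not tested, and in an exchange its 5% load and control label would be uncertain too. With 1 such kidney, its sex cannot be told apart from its other differences. Results are therefore given with all 6 kidneys and, for many of those that low-load 2 moves, also without it. High-load 1 stood apart in another way: 10 proximal tubule markers summed to 3843 CPM there (counts scaled to the library total), against 7996 and 11220 in high-load 3 and 2 and 13330 to 15390 in the low-load kidneys. Kidney identity itself was plain in all 6, with 2933 to 5422 CPM of Umod, the uromodulin of the thick ascending limb. Total counts ranged from 17449270 to 18865997. CPM library totals were adjusted with TMM factors, and means are given ± SD with n = 3 per group.

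The sequence that ATF6 recognises together with the factor NF-Y, the ER stress response element (ERSE), stood before several of the members. It was searched as CCAAT and CCACG with any 9 bases between them, on both strands of the 250 bases before the RefSeq start (build GRCm38.p6). Of the 35 members 30 had a promoter in that table; Atf6, Derl1, Hspa13, Hyou1 and Manf were not matched. The element stood before 10 of these 30 genes (33.3%, counted by gene), against 0.113% of 32851 promoters of all genes (counted by promoter). Because the members were chosen by name as genes of this response, that contrast describes the list and is no result about these kidneys. The 10 were Hspa5, Hsp90b1, Calr, Canx, Creld2, Pdia6, Dnajc3, Syvn1, Derl3 and Ero1lb. Related elements were looked for in the same windows. ERSE-II, searched as ATTGG and CCACG with any 1 base between them, stood before Herpud1 and 0.0304% of all promoters, and the XBP1 element TGACGTGG stood before 0 of the 30 members and 0.563% of all promoters. The amino acid response element TGATGNAAN, which ATF4 can bind, stood before Herpud1 and 3.44% of all promoters. A match is a run of letters and was not tested as a binding site. The 6 examples below are the genes whose levels are contrasted in the results, with the element in capitals and read 5′ to 3′ on the strand of the gene. In the reverse orientation it is the reverse complement. Hsp90b1 holds 2 matches, of which the one nearer the start is shown, and the Hspa5 window is short because it lies in an annotated exon.
Hspa5, ERSE, chr2:34772020-34772048, plus strand: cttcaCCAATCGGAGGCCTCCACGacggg
Hsp90b1, ERSE in reverse, chr10:86705513-86705571, minus strand: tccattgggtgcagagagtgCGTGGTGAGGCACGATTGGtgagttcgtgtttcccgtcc
Creld2, ERSE in reverse, chr15:88819500-88819558, plus strand: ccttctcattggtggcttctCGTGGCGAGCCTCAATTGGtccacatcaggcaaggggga
Dnajc3, ERSE, chr14:118937807-118937865, plus strand: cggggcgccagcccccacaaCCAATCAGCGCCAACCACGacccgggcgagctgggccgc
Derl3, ERSE in reverse, chr10:75893222-75893280, plus strand: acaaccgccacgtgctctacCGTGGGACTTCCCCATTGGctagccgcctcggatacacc
Herpud1, ERSE-II, chr8:94386357-94386407, plus strand: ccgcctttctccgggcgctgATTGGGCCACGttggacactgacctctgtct
Among genes with the element, the difference between the groups varied. The fitted log2 fold changes of the 10 genes with an ERSE had a median of 0.097 and ran from -0.29 for Dnajc3 to 1.60 for Derl3. Another 10 tested genes outside the member list carry the same letters, with a median of 0.0055, and of these 0 were higher and 1 was lower at an unadjusted p under 0.05.

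The comparison asks which of these transcripts differ between the high-load and the low-load kidneys. None of the 35 passed an adjusted p of 0.05 in edgeR's quasi-likelihood test, in which 0.0188% of all genes passed. The smallest adjusted p was 0.0967, for Derl3, the 1 member under 0.1, where 2.59% of all genes were higher and 0.608% lower. At an unadjusted p under 0.05, 6 members were higher in high-load kidneys (Derl3, Sdf2l1, Ern1, Ero1l, Sec61b and Edem2) and 2 were lower (Dnajc3 and Herpud1). Over all genes tested, 14.0% were higher and 10.2% lower by the same rule (2233 and 1628 genes, or 2896 and 1007 when scaled by library totals), and 24.2% passed in either direction. The 8 members lie near that background. DESeq2 called 1 member, Derl3, and limma-voom called 0. Without low-load 2 the members at an unadjusted p under 0.05 were 2 higher (Derl3 and Sdf2l1) and 2 lower (Dnajc3 and Herpud1), beside 9.84% and 6.25% of all genes. Without high-load 1 they were 5 higher and 0 lower, beside 10.6% and 8.09%.

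Small positive differences were common among the members. The fold change was above 1 for 27 of the 35 and below 1 for 8, beside 50.9% of all genes above 1, and their median log2 fold change was 0.13, beside 0.0067 for all genes. Without low-load 2 the split was 22 to 13 and the median 0.085, beside 0.012 for all genes. Without high-load 1 the split was 29 to 6 and the median 0.13, beside 0.0066 for all genes. With all 6 kidneys the role groups had like medians. These were 0.13 for 6 sensors and processing enzymes, 0.15 for 10 ATF6-leaning outputs, 0.15 for 10 XBP1-leaning outputs and 0.088 for 9 others. Without low-load 2 these medians were 0.14, 0.10, 0.14 and 0.023. Values in all 3 high-load kidneys lay above those of all 3 low-load kidneys for 8 members, beside 17.1% of all genes, and below them for 1 member, P4hb, beside 15.8%. Without low-load 2 the counts were 9 above and 6 below (Calr, Dnajc3, Herpud1, Mbtps1, Os9 and P4hb), beside 21.5% and 20.8%, and without high-load 1 they were 9 and 2, beside 20.7% and 19.0%.

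**Figure D1:**
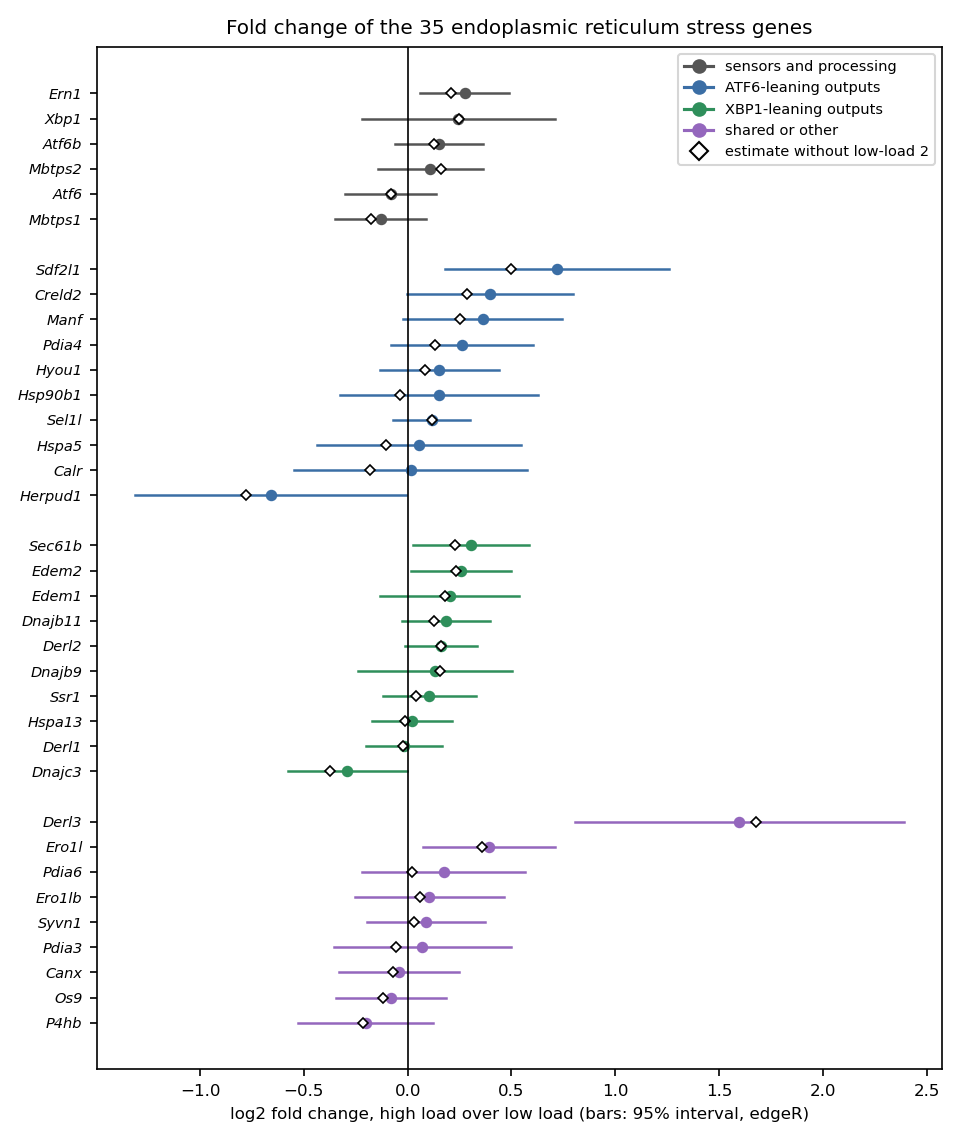
Log2 fold change of each member (x axis, high load over low load) by role group (colour), with filled points for the fit on 6 kidneys, bars for its 95% interval and open diamonds for the estimate without low-load 2. Most points lie between -0.3 and 0.4, and Derl3 at 1.60, Sdf2l1 at 0.72 and Herpud1 at -0.66 lie farthest out.

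Among the sensors, Ern1 had the smallest p. It stood at 31.3, 27.8 and 32.6 CPM in low-load 1 to 3 and at 36.5, 36.0 and 38.5 CPM in high-load 1 to 3. All 3 high-load values exceeded all 3 low-load values, by a narrow margin, with a log2 fold change of 0.27 (SE 0.089, edgeR adjusted p 0.147). Without low-load 2 the log2 fold change of Ern1 was 0.21 (edgeR adjusted p 0.320). Xbp1 stood at 213, 185 and 149.5 CPM in the low-load and at 266, 203 and 178 CPM in the high-load kidneys. These groups overlapped, and the log2 fold change of 0.24 had a 95% interval from -0.22 to 0.71. Atf6 stood at 59.5, 62.3 and 64.3 CPM against 64.4, 54.3 and 56.95 CPM, with overlapping groups and an interval from -0.30 to 0.13. Its paralogue Atf6b stood at 47.2 ± 3.79 and 52.4 ± 2.24 CPM. The proteases that cut ATF6 had means of 110.3 ± 6.28 and 100.7 ± 6.51 CPM for Mbtps1 and of 19.1 ± 1.18 and 20.6 ± 1.63 CPM for Mbtps2, and both overlapped between the groups. Without low-load 2 the 3 high-load values of Mbtps1 lay below both remaining low-load values.

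The major chaperones of the ATF6 branch differed between the groups by less than the spread between kidneys. Hspa5 stood at 544, 359 and 494 CPM in low-load 1 to 3 and at 438, 577 and 437 CPM in high-load 1 to 3. The groups overlapped throughout, and the log2 fold change was 0.055 with a 95% interval from -0.43 to 0.54. That interval spans differences of either sign, so neither a rise nor a fall within it can be excluded. Without low-load 2 the estimate was -0.10, with an interval from -0.58 to 0.37. Hsp90b1, the ER member of the HSP90 family, stood at 420.4, 272.5 and 440.2 CPM and at 404, 447 and 407 CPM. Its log2 fold change was 0.15, and -0.039 without low-load 2. Calr, the calcium-binding lectin chaperone, stood at 789, 504 and 843 CPM in the low-load and at 596, 784 and 778 CPM in the high-load kidneys. Its log2 fold change was 0.015, and -0.18 without low-load 2, where all 3 high-load values lay below both remaining low-load values.

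In each of these genes low-load 2 was the lowest of the 6 kidneys. The same held for 8 of the 10 ATF6-leaning outputs and for 17 of all 35 members (48.6%), beside 22.9% of all genes tested, and low-load 2 was the highest kidney for 0 members. Within the low-load group alone the highest kidney exceeded the lowest 1.51-fold for Hspa5, 1.61-fold for Hsp90b1, 1.67-fold for Calr and 1.91-fold for Sdf2l1. High-load over low-load means stood at 1.04 for Hspa5, 1.01 for Calr and 1.65 for Sdf2l1.

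The other ATF6-leaning outputs except Herpud1 also had higher means in high-load kidneys. Sdf2l1, a partner of the BiP co-chaperones, stood at 12.8, 8.08 and 15.4 CPM in low-load 1 to 3 and at 19.3, 20.5 and 20.2 CPM in high-load 1 to 3. All 3 high-load kidneys were above all 3 low-load kidneys and close to each other, and the log2 fold change was 0.72 (SE 0.23, edgeR adjusted p 0.141). Without low-load 2 it was 0.50 (edgeR adjusted p 0.266). Creld2, an ER protein with EGF-like repeats, stood at 34.7, 24.4 and 27.7 CPM against 44.1, 38.3 and 32.0 CPM. Low-load 1 lay above high-load 3, and the log2 fold change was 0.40 (SE 0.17, edgeR adjusted p 0.210), or 0.29 without low-load 2. Manf, a secreted ER stress protein, stood at 69.95, 47.2 and 50.3 CPM against 71.8, 77.0 and 66.3 CPM. Its groups overlapped too, through low-load 1, with a log2 fold change of 0.36 that was 0.25 without low-load 2. The disulfide isomerase Pdia4 and the large chaperone Hyou1 had means of 111.8 ± 18.3 and 134 ± 11.7 CPM, and of 102 ± 15.2 CPM with high-load kidneys at 109.1 to 116.7 CPM. The log2 fold change of Pdia4 was 0.26, and 0.13 without low-load 2. That of Hyou1 was 0.15, and 0.085 without low-load 2, and both genes overlapped between the groups. Sel1l, the scaffold of the HRD1 ubiquitin ligase, stood at 104 ± 1.90 and 113 ± 4.27 CPM, with the 3 high-load kidneys above the 3 low-load ones and a log2 fold change of 0.12 (edgeR adjusted p 0.391).

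Herpud1 had the lower mean in high-load kidneys. This membrane protein of the degradation machinery answers to ER stress and to ATF4, and it stood at 416, 293.5 and 348 CPM in low-load 1 to 3 and at 197, 315 and 158 CPM in high-load 1 to 3. High-load 1 and 3 lay below all low-load kidneys, while high-load 2 lay inside their range. The log2 fold change was -0.66 (SE 0.27, edgeR adjusted p 0.204), and -0.78 without low-load 2, where the groups did not overlap. Of the 30 members searched, Herpud1 was the only one whose promoter window held ERSE-II or the amino acid response element. For the amino acid response element that is 3.33% of the members, near the 3.44% of all promoters, and for ERSE-II 3.33% beside 0.0304%. Per kilobase of exon only Calr and P4hb exceeded Herpud1 in the low-load kidneys, at 247 and 202 CPM per kilobase against 151.

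**Figure D2:**
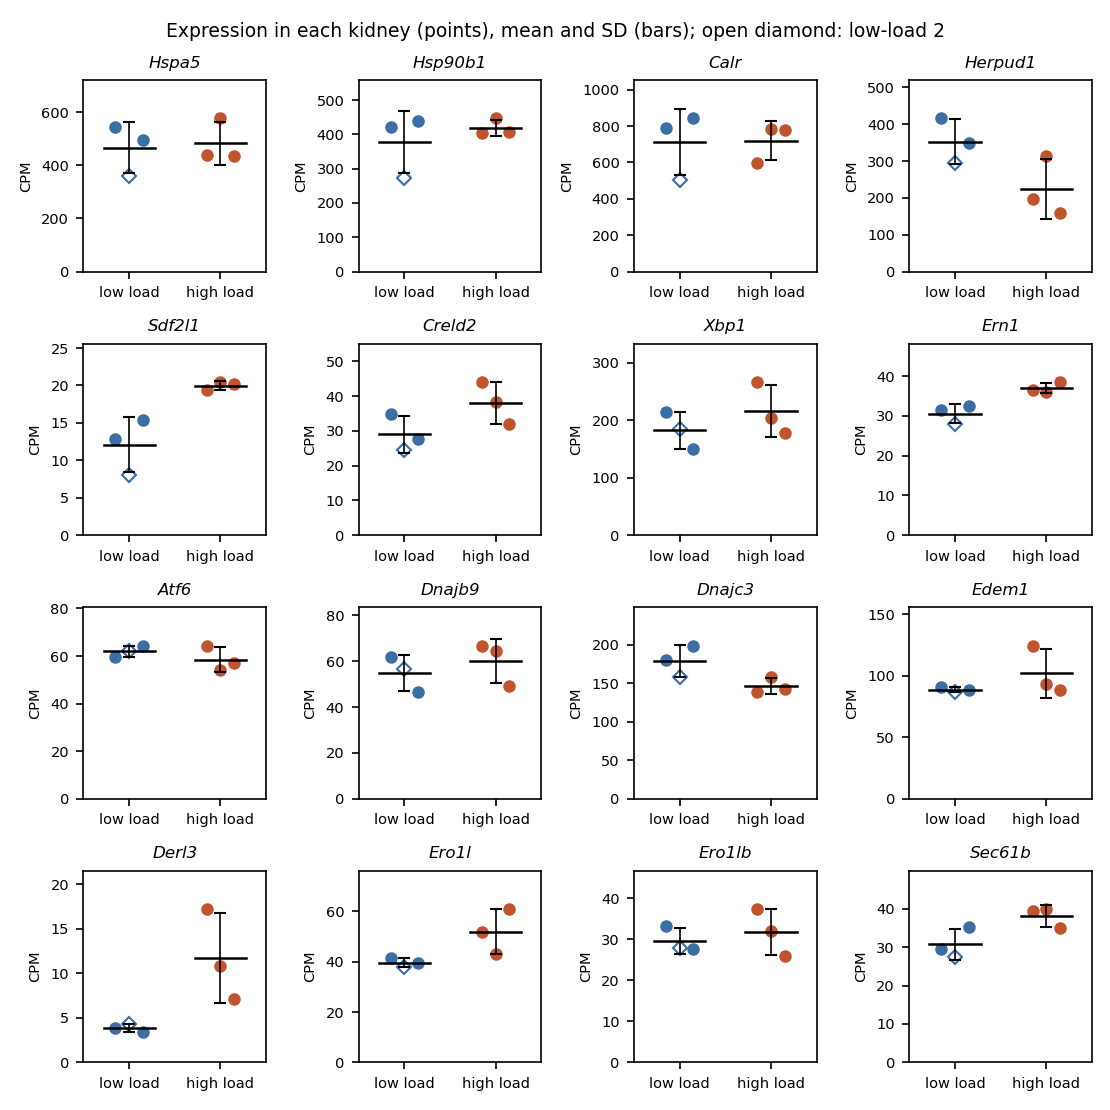
CPM (y axis, from 0) of 16 members in each low-load and high-load kidney, with the group mean and SD as bars and low-load 2 as an open diamond. High-load kidneys sit above all low-load kidneys for Derl3, Sdf2l1, Ern1 and Ero1l, and the points overlap for Hspa5, Hsp90b1, Calr, Xbp1, Atf6 and Dnajb9.

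The XBP1-leaning outputs differed by small amounts. Dnajb9, a BiP co-chaperone and a sensitive target of spliced XBP1, stood at 61.6, 56.8 and 46.4 CPM in low-load 1 to 3 and at 66.8, 64.4 and 49.3 CPM in high-load 1 to 3. The groups overlapped, with a log2 fold change of 0.13 and a 95% interval from -0.24 to 0.50. Edem1, a lectin that hands misfolded glycoproteins to degradation, stood at 90.8, 86.5 and 88.8 CPM against 124.5, 93.0 and 88.4 CPM. High-load 1 and 2 lay above all low-load kidneys and high-load 3 within their range (log2 fold change 0.20, edgeR adjusted p 0.408). Its relative Edem2 stood at 43.4, 39.4 and 39.3 CPM against 54.2, 47.0 and 44.5 CPM. Here the groups did not overlap, and the log2 fold change was 0.26 (SE 0.10, edgeR adjusted p 0.187).

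Sec61b, a subunit of the channel through which proteins enter the ER, stood at 29.6, 27.4 and 35.3 CPM in the low-load and at 39.5, 39.9 and 34.9 CPM in the high-load kidneys. Low-load 3 lay just above high-load 3, and the log2 fold change was 0.31 (SE 0.12, edgeR adjusted p 0.180), or 0.23 without low-load 2. Derl2, a derlin of the degradation channel, stood at 51.6, 50.7 and 49.7 CPM against 54.1, 57.7 and 58.3 CPM. The co-chaperone Dnajb11 stood at 92.0, 82.7 and 95.7 CPM against 98.1, 105.4 and 104 CPM. Both were higher in all 3 high-load kidneys, by log2 fold changes of 0.16 and 0.19 (edgeR adjusted p 0.227 and 0.252).

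Dnajc3, the co-chaperone that also inhibits eIF2alpha kinases, had a lower mean in high-load kidneys. It stood at 179.8, 158 and 199 CPM in low-load 1 to 3 and at 138, 158 and 143 CPM in high-load 1 to 3. The groups met at low-load 2 and high-load 2, and the log2 fold change was -0.29 (SE 0.12, edgeR adjusted p 0.202). Without low-load 2 it was -0.37, and the groups did not overlap. For Derl1 and Hspa13 the intervals were narrow. Derl1 stood at 109.9 ± 2.97 and 108.7 ± 2.70 CPM, with a 95% interval of the log2 fold change from -0.20 to 0.17, and the chaperone Hspa13 at 33.1 ± 1.97 and 33.6 ± 0.883 CPM, with an interval from -0.17 to 0.21. Ssr1, a subunit of the translocon-associated complex, stood at 132 ± 10.2 and 142 ± 2.70 CPM.

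Derl3, the inducible derlin, had the largest fold change of the 35. It lies on chromosome 10 from 75893413 to 75895941 (ENSMUSG00000009092, mm10, plus strand), and none of its exons overlaps another gene. It stood at 3.88, 4.31 and 3.43 CPM in low-load 1 to 3 and at 17.2, 10.9 and 7.13 CPM in high-load 1 to 3. Every high-load kidney exceeded every low-load kidney, and the high-load kidneys spread 2.41-fold among themselves. The log2 fold change was 1.60 (SE 0.33, edgeR adjusted p 0.0967, DESeq2 adjusted p 0.000635), with 1.22 to 1.85 when any 1 kidney was left out. Per kilobase of exon it was among the scarcest members, at 1.95 CPM per kilobase in low-load kidneys, beside 33.0 for Derl1 and 6.30 for Derl2.

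Derl3 is known as a gene of secretory cells, plasma cells among them, and markers of antibody-making cells had higher values in the same kidneys. Of the 10 plasma and B cell markers 9 were tested, and all 9 had a fold change above 1, beside 50.9% of all genes. At an unadjusted p under 0.05 in edgeR's test, 5 of the 9 were higher, beside 14.0% of all genes. Without low-load 2 it was 4 of 10 tested, beside 9.84%. With all 6 kidneys, 6 of the 9 had all 3 high-load kidneys above all 3 low-load kidneys, beside 17.1% of all genes. Mzb1, Igha and Ighg2c overlapped between the groups. The 10th, Tnfrsf17, was at 0.17 to 0.36 CPM in low-load and 0.22 to 1.04 CPM in high-load kidneys, and none of the 10 was at 0 throughout. The summed level of the 9 was 1473 to 3298 CPM in low-load and 4174 to 7946 CPM in high-load kidneys. Jchain, the joining chain of secreted antibodies, stood at 122, 104 and 69.5 CPM in low-load 1 to 3 and at 965, 278 and 212 CPM in high-load 1 to 3. The mean log2 score of these markers against the low-load mean was -0.23, 0.47 and -0.24 in low-load 1 to 3 and 2.24, 1.45 and 0.86 in high-load 1 to 3. The 6 kidneys stood in the same order by this score and by Derl3, though low-load 1 and 3 were almost level in the score. Sdf2l1, Creld2 and Ero1l were checked too and did not share that order. By the summed level the order was another, with 5907, 7946 and 4174 CPM in high-load 1 to 3 and so high-load 2 highest. The part of these cells in the level of Derl3 was not tested. In whole tissue, more cells of a type and more RNA per cell cannot be told apart.

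**Figure D3:**
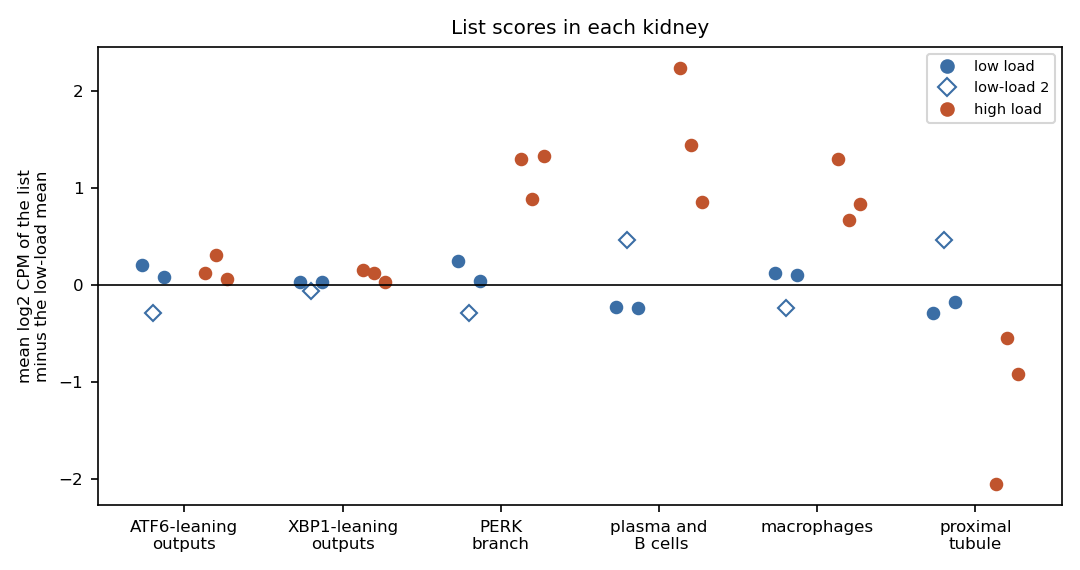
Mean log2 CPM of 6 gene lists in each kidney, minus the mean of the low-load kidneys (y axis), with low-load kidneys in blue, low-load 2 as an open diamond and high-load kidneys in orange. The ATF6-leaning and XBP1-leaning scores of high-load kidneys lie between 0.033 and 0.31. Their scores for the PERK branch, plasma and B cells and macrophages lie above every low-load kidney. The list labelled PERK branch holds PERK and transcripts downstream of eIF2alpha phosphorylation, whichever kinase causes it.

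The folding oxidases Ero1l and Ero1lb are among the 9 others, which are shared by the branches or not assigned to one. Ero1l, which reoxidises protein disulfide isomerase and is also raised by hypoxia and CHOP, stood at 41.4, 37.7 and 39.6 CPM in low-load 1 to 3 and at 51.8, 43.1 and 60.9 CPM in high-load 1 to 3. All 3 high-load kidneys were above all low-load kidneys, with a log2 fold change of 0.39 (SE 0.13, edgeR adjusted p 0.156). Its paralogue Ero1lb, best known from the pancreas, stood at 33.2, 27.9 and 27.8 CPM against 37.4, 32.1 and 26.0 CPM. Those groups overlapped, with a log2 fold change of 0.11 and an interval from -0.25 to 0.46. Whether the paralogues differ in response was not tested. Their 95% intervals overlap.

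The isomerase P4hb stood at 587, 567 and 577 CPM in the low-load and at 452, 559.5 and 493 CPM in the high-load kidneys. It was the single member below the low-load range in all 3 high-load kidneys, by a log2 fold change of -0.20 (SE 0.14, edgeR adjusted p 0.394). The related Pdia3 and Pdia6 stood at 427 ± 72.0 and 449 ± 60.5 CPM, and at 168.5 ± 31.5 and 190 ± 19.9 CPM. Their log2 fold changes were 0.071 and 0.17, and -0.057 and 0.023 without low-load 2. The lectin chaperone Canx stood at 400.3 ± 13.2 and 389 ± 30.2 CPM. The ubiquitin ligase Syvn1, also called HRD1, stood at 71.0 ± 5.61 and 75.5 ± 9.77 CPM, and its lectin partner Os9 at 197 ± 9.38 and 186 ± 17.7 CPM. All of these 5 overlapped between the groups.

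**Figure D4:**
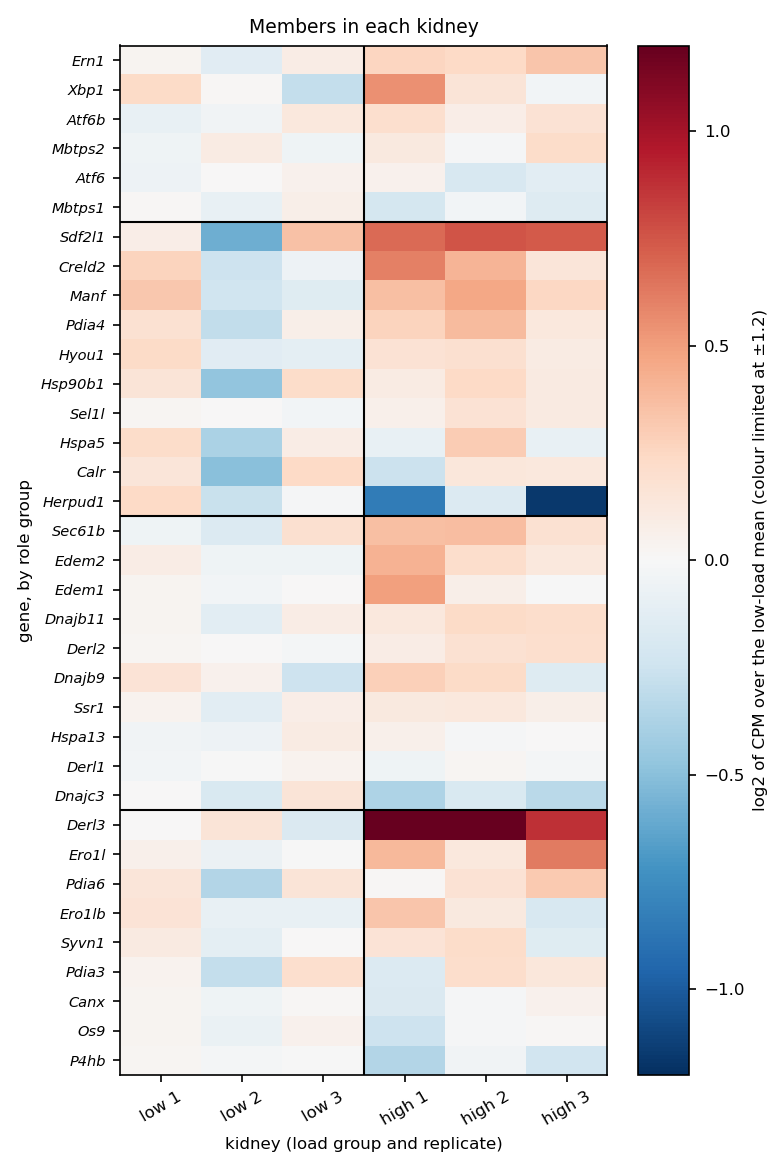
Log2 of the CPM of each member (rows, by role group) over its mean in low-load kidneys, for each of the 6 kidneys (columns), with colour limited at 1.2 in either direction. Low-load 2 is blue across most ATF6-leaning outputs and Derl3 is red in the 3 high-load columns. Herpud1 is blue in high-load 1 and 3 and near the low-load mean in high-load 2.

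The rest of the ER machinery was read from a list of 62 further genes of translocation, folding, glycan trimming and degradation. In edgeR's test 0 passed an adjusted p of 0.05. At an unadjusted p under 0.05, 3 were higher and 4 lower, beside 14.0% and 10.2% of all genes, and their median log2 fold change was -0.015. Without low-load 2 the counts at that p were 3 higher and 0 lower, beside 9.84% and 6.25% of all genes. Fkbp11, a peptidyl-prolyl isomerase of secretory cells, stood at 3.05, 3.65 and 3.65 CPM in low-load 1 to 3 and at 6.38, 7.93 and 8.91 CPM in high-load 1 to 3, so its highest kidney was high-load 3 and that of Derl3 high-load 1. Its log2 fold change was 1.16 (SE 0.20, edgeR adjusted p 0.0936). Sec11c, a subunit of the signal peptidase, stood at 31.3 ± 3.41 and 45.2 ± 9.35 CPM, and Uggt1, the glycoprotein folding sensor, at 61.4 ± 3.54 and 72.4 ± 3.32 CPM. The lower ones included Rnf5, an ER ubiquitin ligase (63.6 ± 4.22 and 51.5 ± 5.00 CPM), Sec62 of the translocation channel (289 ± 4.66 and 223 ± 32.9 CPM) and Tmbim6, an ER membrane protein (2259 ± 195 and 1570 ± 261 CPM). All 3 high-load kidneys lay on one side of all 3 low-load kidneys in these 6 genes, which were picked by smallest p. Over the 62 genes 6 lay above and 11 below in this way, beside 17.1% and 15.8% of all genes.

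The third branch was read from 6 genes, PERK and transcripts downstream of eIF2alpha phosphorylation. Other kinases phosphorylate eIF2alpha as well, and the part of PERK in these levels was not tested. In edgeR's test 0 of the 6 genes passed an adjusted p of 0.05. At an unadjusted p under 0.05, 4 were higher, beside 14.0% of all genes (3 without low-load 2, beside 9.84%). PERK itself, Eif2ak3, stood at 49.2 ± 1.97 and 51.8 ± 2.38 CPM, with overlapping groups and a log2 fold change of 0.072. Atf4 stood at 118 ± 6.16 and 151 ± 19.7 CPM. Ddit3, which encodes CHOP, stood at 15.2, 12.8 and 12.1 CPM in low-load 1 to 3 and at 32.2, 27.1 and 38.5 CPM in high-load 1 to 3 (log2 fold change 1.29, edgeR adjusted p 0.0772). Trib3 had the largest log2 fold change, 3.88, at 0.67 to 2.1 CPM in low-load and 14.4 to 33.8 CPM in high-load kidneys. Chac1 stood at 2.30 ± 0.94 and 5.28 ± 1.35 CPM, and Ppp1r15a at 23.1 ± 1.68 and 27.4 ± 3.42 CPM. Over these 6 genes the median log2 fold change was 0.78 (0.63 without low-load 2). In 5 of them all 3 high-load kidneys were above all 3 low-load kidneys, beside 17.1% of all genes. The difference between this median and those of the ATF6-leaning and XBP1-leaning outputs was not tested.

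Markers of other cells were read the same way, and in edgeR's test 0 genes of any marker list passed an adjusted p of 0.05. The counts below stand beside 14.0% of all genes higher and 10.2% lower at an unadjusted p under 0.05. Without low-load 2 these shares were 9.84% and 6.25%. All 10 proximal tubule markers had a fold change below 1, with 3 lower at an unadjusted p under 0.05. One of these 3, Slc7a13, stood at 118.1 CPM in low-load 2 and at 0.14 to 1.31 CPM in the other 5 kidneys. Without low-load 2 all 10 were still below 1, with 1 lower at that p. Of 8 macrophage markers 7 were higher by the same rule (7 higher and 1 lower without low-load 2), with a sum of 307 to 419 CPM in low-load and 568 to 919 CPM in high-load kidneys. All 6 tubule injury markers were higher at that p, with and without low-load 2, and summed to 552 to 831 CPM in low-load and 1767 to 4142 CPM in high-load kidneys. The early response list held Fos, Fosb, Jun, Junb, Egr1 and Atf3, which handling of tissue can raise, though not handling alone. They summed to 72.3 to 118 CPM in low-load and 144.5 to 283 CPM in high-load kidneys, with Atf3 at 3.77 ± 1.44 and 15.9 ± 4.35 CPM. Of these genes 6 of 6 were higher at that p, or 2 without low-load 2, and the cause was not tested. For endothelium (5 markers) and podocytes (3) 0 passed that p in either direction. Of 4 markers of thick ascending limb and distal tubule 1 was lower, of 6 collecting duct markers 2 were higher and 1 lower, and of 5 fibroblast markers 2 were higher. The part of these cells in the levels of the members was not tested.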

How the data were processed

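Gene counts, not normalized, were deposited by the authors in 1 table with a column for each of the 6 kidneys. Per the labels' protocols, TRIzol RNA went into TruSeq libraries read as paired ends. Tools listed in the submitters' processing notes are HISAT2 2.2.1, featureCounts 2.0.1, fastp 0.23.2, SAMtools 1.11 and edgeR, with build mm10. Annotation and strand setting: not given in the sources used here. Counts are therefore less certain for the 9 members whose exons overlap another gene (Derl2, Dnajb9, Hsp90b1, Manf, Mbtps2, Pdia3, Pdia4, Pdia6 and Syvn1). Symbols, positions and exon lengths came from GENCODE M21, which matched 32158 of 32285 IDs, and promoters from RefSeq.

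Groups were compared with the two-sided quasi-likelihood F test of edgeR 4.0.16 under R 4.3.3, after filterByExpr (minimum count 10) and TMM, with robust estimation and Benjamini-Hochberg adjustment over 15955 genes. DESeq2 1.42.0 and limma-voom (limma 3.58.1) were alternatives, and the fits were tested on simulated data. The other alternatives were library totals or DESeq2 size factors, no filter, a non-robust fit, a replicate block, load as a number and leaving out kidneys. The labels do not say how separately the kidneys were handled, so p-values measure the spread between these samples. Replicates differed by 21.4 to 100 times counting noise, so none was taken for a repeat. Intervals are 95%, and list scores are means of log2 CPM with a prior count of 2.

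The members and lists were chosen with earlier results of these data known. By rule, every kidney's value was printed for Hspa5, Hsp90b1, Xbp1, Atf6, Ern1, Herpud1, Sdf2l1, Creld2, Dnajb9, Edem1, Ero1l, Ero1lb and the 12 members with the smallest p. The remaining members were given by mean and SD, and 6 other pathway genes were named by smallest p. Calr, P4hb, Jchain, Slc7a13, Trib3 and the sex-linked genes were given in more detail after their values were seen.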

Additional observations from a re-analysis of the deposited data

How the results depend on the processing

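Over all genes, edgeR called 3 at an adjusted p under 0.05, 511 under 0.1, 50 with no filter on low counts, 1 with the replicate number as a block and 10 with mutation load as a number, and 0 to 807 with each kidney left out (leaving out high-load 2 gave 807, high-load 3 gave 3, and any other kidney gave 0), and 0 without both low-load 2 and high-load 1. DESeq2 called 1677 and limma-voom 0. Among the 35 members the count was 0 in edgeR and limma-voom under every alternative run at a threshold of 0.05, 1 in DESeq2 and 1 under an adjusted p of 0.1, both Derl3. The 6 members higher at an unadjusted p under 0.05 became 12 with library totals, 2 to 8 with each kidney left out (2 without low-load 2), and 2 without low-load 2 and high-load 1. The 2 lower members became 0 with library totals, 1 with limma-voom, 0 with the replicate block, 1 with load as a number, 0 to 2 with each kidney left out (0 without low-load 1, low-load 3, high-load 1 or high-load 3) and 1 without both kidneys. Library totals moved the median of all genes from 0.0067 to 0.13, the members' median to 0.26, and those of sensors, XBP1-leaning outputs and the others to 0.25, 0.27 and 0.21. The XBP1-leaning median was 0.077 to 0.18 with each kidney left out, lowest without high-load 1, that of the others 0.021 to 0.14, and the former 0.057 without both kidneys, where the others' median was -0.0048. Leaving out both kidneys, and low-load 2 for the marker and pathway lists, was chosen after seeing the data.

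Syvn1 stood at 0.021 to 0.19 with each kidney left out. Of 525 pairs of a member and an alternative, 499 kept direction and call and 24 members kept their sign throughout. With library totals Atf6 (0.043), Derl1 (0.10), Canx (0.072) and Os9 (0.034) turned positive, all below the shift of the median gene. With 1 kidney left out the ranges that crossed 0 were -0.10 to 0.18 for Hspa5, -0.039 to 0.27 for Hsp90b1, -0.18 to 0.15 for Calr, -0.039 to 0.0021 for Derl1, -0.012 to 0.067 for Hspa13, -0.091 to 0.022 for Canx, -0.057 to 0.18 for Pdia3, -0.13 to 0.0011 for Os9 and -0.024 to 0.23 for Ero1lb. Without both kidneys Hspa5 (-0.033), Hsp90b1 (-0.0094), Calr (-0.061), Hspa13 (-0.030), Syvn1 (-0.0048) and Ero1lb (-0.066) were negative. The cause of these changes was not tested. Replicate numbers did not pair the kidneys (correlations of deviations 0.12, -0.18 and 0.049 for numbers 1, 2 and 3), and the block changed no member's call. The median SE of the log2 fold change was 0.12 for the members and 0.17 for all genes, with 3 kidneys per group, and the effect of depth was not tested.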
